A study of Homo sapiens with 16 samples.

Results

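The change in HuR enrichment after depletion of MIR100HG was examined for 414 probes out of the 47231 on the array. The 414 probes were selected on their own signal: each had a detection p-value under 0.01 on all 4 arrays of RNA recovered with a HuR antibody from cells given control siRNA. They comprise 255 probes with a gene name, which stand for 238 genes, and 159 probes unnamed here. The selecting p-values compare a probe with the negative controls of its array. The change in enrichment was then taken as the HuR minus IgG difference with MIR100HG siRNA, minus the same difference with control siRNA, on the log2 scale. A negative value means a smaller HuR enrichment after MIR100HG siRNA.

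All samples were U2OS, a human osteosarcoma cell line, synchronized in the cell cycle and transfected for 48 hours with either siRNA. The MIR100HG siRNA was a single reagent, aimed at exon 4 of the transcript that the protocol spells mIR-110HG. The labels used here leave the cell cycle phase of each sample unstated. RNA was recovered on beads with IgG or with HuR antibody and amplified from an oligo-dT primer, which gave 4 groups of 4 biological replicates: IgG with control siRNA, IgG with MIR100HG siRNA, HuR with control siRNA and HuR with MIR100HG siRNA. Input RNA was not analysed here, so a change in the amount of an mRNA in the cells and a change in its recovery with HuR cannot be told apart, nor can fewer cells and less RNA per cell.

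HuR, encoded by ELAVL1, is an RNA-binding protein that recognises U-rich and AU-rich stretches, mostly in 3′ untranslated regions. It is known for stabilising its target mRNAs or changing their translation, and many of its described targets act in proliferation, survival and the cytoskeleton. MIR100HG is the host transcript of a microRNA cluster and also acts as a long noncoding RNA. The series addresses, per its title, whether MIR100HG RNA alters the binding of HuR to its mRNAs.

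The probes for MIR100HG and ELAVL1 were detected at p under 0.05 on 0 of 16 arrays, with lowest detection p-values of 0.0688 and 0.117, so the arrays could not show the depletion. Of the mesenchymal markers only CDH2 was a member, and FN1 was detected at p under 0.01 on 1 array. VIM, COL1A1, COL1A2, SPARC, RUNX2 and ALPL were detected at that level on none. Probes for PTPRC, CD3E, EPCAM, CDH1, PECAM1 and ALB, which mark blood, epithelium, endothelium and liver, were also detected at p under 0.01 on none. Replicate 2 of the HuR group with MIR100HG siRNA stood apart, with 2592 probes detected against 563, 761 and 824 on the other 3 arrays of its group. The comparisons were therefore made over 15 arrays without it and repeated over 16.

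At the edge of the selection, the members SP3, MFN1 and SNRPG had a highest detection p of 0.00909. Their mean intensities on the HuR arrays with control siRNA were 58.8, 59.3 and 67.0. TBC1D13, SDC4, SFT2D2, TOMM7 and VMA21, with a highest detection p of 0.0104 and mean intensities of 57.5 to 73.5, lay just outside.

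The signal of the members was lower on 3 of the 4 HuR arrays after MIR100HG siRNA and far higher on the other one. The median intensity of the 414 probes was 75.5, 90.0, 92.0 and 67.0 on the 4 HuR arrays with control siRNA, by which they were selected. It was 59.0, 195, 58.0 and 52.0 on HuR replicates 1, 2, 3 and 4 with MIR100HG siRNA. It was 58.0, 55.0, 54.0 and 54.0 on the IgG arrays with control siRNA, and 51.0, 46.0, 48.0 and 50.0 on those with MIR100HG siRNA. Without replicate 2, the HuR arrays with MIR100HG siRNA averaged 56.3 ± 3.79 (SD, n = 3), close to the IgG arrays with control siRNA at 55.3 ± 1.89 (SD, n = 4).

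The number of members above background (detection p under 0.05) shows the same split. It was 234, 232 and 140 of 414 on HuR replicates 1, 3 and 4 with MIR100HG siRNA, and 409 on replicate 2. It ranged from 226 to 274 on the IgG arrays with control siRNA and from 137 to 212 on those with MIR100HG siRNA. The 3 HuR arrays thus lay within or near the IgG range, and replicate 2 was above the HuR mean with control siRNA for 376 members.

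Many members were also recovered with IgG from cells given control siRNA. Above-background signal on all 4 IgG arrays with control siRNA was found for 187 members, and on none of them for 102. At the selecting level of 0.01, 126 members were detected on all 4 of those IgG arrays.

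In the fit over 15 arrays, 136 of 414 members were called lower in HuR enrichment after MIR100HG siRNA (limma, adjusted p under 0.05 over the 1181 probes tested). Over all 1181 probes, 11.6% were called lower. Because the members were selected on arrays of this comparison, that count is given as a description and nothing is read from it. Among the 767 other tested probes 1 was called lower. The members called higher numbered 3, against 2.03% of all probes tested. The median change was -0.37 over the members and 0.05 over all tested probes.

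The normalization set the size of this change. The medians above come from quantile-normalized values, in which all arrays share 1 distribution. With no scaling between arrays the members' median was -0.86 and 251 were called lower, including all 136, where 21.5% of all probes tested were called. With median centring it was -0.87. None of the 3 called higher was called without scaling or with median centring.

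Part of the selection could be kept apart from the fit by choosing probes on 2 of the HuR arrays with control siRNA and fitting the others. Chosen on replicates 1 and 2 and fitted with 3 and 4, 111 of 706 probes were called lower, or 15.7%, against 8.36% of all probes tested. Chosen on replicates 3 and 4 and fitted with 1 and 2, it was 113 of 517, or 21.9%, against 9.42%. The median changes of the chosen probes were -0.22 and -0.19, closer to 0 than the -0.37 of the members. In both splits every probe called lower was among the chosen ones, so each pair of shares rests on the same calls. The filter for tested probes also used all 15 arrays. These fits share the IgG arrays and the 3 HuR arrays with MIR100HG siRNA, so the shares are given as descriptions.

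With replicate 2 included the calls were nearly all lost, while the median hardly moved with quantile normalization. Over 16 arrays 3 members were called lower, against 0.209% of 1438 probes tested, and all 3 were among the 136. The median was -0.39 with quantile normalization and -0.17 with no scaling. C6orf62, which was named after its values were seen, was the only gene with a name among the 3. Its intensities were 83, 116, 94 and 65 on the HuR arrays with control siRNA and 50, 112, 49 and 42 with MIR100HG siRNA, so replicate 2 was among its control values. Its change over 16 arrays was -1.17 (adjusted p = 0.0482).

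Each HuR array with MIR100HG siRNA was also taken alone. With quantile normalization the members' median change was -0.42, -0.45 and -0.71 with replicates 1, 3 and 4, and 0.10 with replicate 2. With no scaling it was -0.81, -0.81 and -0.95, against 1.95 with replicate 2. With median centring replicate 2 gave 1.56. Replicate 2 alone put 380 of the 414 members above 0 without scaling, where replicates 1, 3 and 4 put 63, 61 and 54 there.

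The HuR arrays alone were also compared. Between siRNAs within HuR, 254 members were called lower and 33 higher, where 24.7% and 9.23% of all probes tested were called. These arrays also include the selecting ones. For 311 members all 3 HuR intensities after MIR100HG siRNA lay below all 4 with control siRNA, and for 26 they lay above. The members were selected for signal on those 4 control arrays. The share over all probes tested was not counted, so nothing is read from the 311 and 26. On none of the 3 arrays were 139 members above background, and 126 remained above background on all 3. The low values on these arrays also lower the change in enrichment, so the calls are not set against this split.

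The change was also set out by the number of IgG arrays with control siRNA on which a member was above background. The IgG arrays that give this split also enter the change, so no test is made of it. The 102 members above background on none of the 4 IgG arrays with control siRNA had a median change of -0.70, and 82 were called lower. The median was -0.65 for the 57 members seen on 1 such array, -0.51 for 37 on 2, and -0.25 for 31 on 3. The 187 members seen on all 4 had a median of 0.11, with 1 called lower and 3 higher. Without scaling the medians were -1.07, -1.16, -1.11, -0.89 and -0.31 for 0 to 4 such arrays, so the members seen on none were not the lowest there.

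In 2 further comparisons the difference itself leaves out the selecting arrays, although they enter the normalization and the estimate of spread. With MIR100HG siRNA, HuR exceeded IgG for 27 members over 15 arrays, and 3.13% of all probes tested were called in that direction. IgG exceeded HuR for 12 members, against 1.1% of all probes. The median difference was 0.06 over the members and 0.03 over all tested probes. Without scaling, 16 of the 27 were called and 0 of the 12, and with median centring 6 and 0. The median of all tested probes was 0.14 without scaling. The 5 members JUND, ACTB, ANXA2P2, ORC6 and ITGB1 differed by 1.75 to 2.47 in favour of HuR. Over 16 arrays 26 of the 27 and 9 of the 12 were called. The total of 39 went down to 13 without HuR replicate 3 with MIR100HG siRNA and up to 70 without its replicate 4. With the spread taken from the arrays of this comparison alone, the calls were 2, ORC6 and RPS29 (adjusted p = 0.00201 and 0.00852), while ITGB1, JUND, ANXA2P2 and ACTB had adjusted p-values of 0.340, 0.133, 0.0945 and 0.0842.

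Within IgG, 49 members were lower after MIR100HG siRNA, against 8.04% of all probes tested, and 10 were higher, against 1.19%. Of the 49, 37 were also called without scaling and 42 over 16 arrays. Of the 10, 0 were called without scaling and 6 kept their sign. The total of 59 went up to 96 without IgG replicate 1 with MIR100HG siRNA, and was 20 with the spread taken from the IgG arrays alone. The IgG arrays enter the change in enrichment with the opposite sign, so a member that fell in both IPs could show no change in enrichment. Ribosomal protein mRNAs, described further on, include 9 of the 49.

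By class of encoded protein, the member genes were sorted into 21 lists, of which 19 held at least 3 member genes. The lists and the members were chosen with earlier results in view, and the class medians below are descriptions. Adhesion and extracellular matrix genes had the lowest median among the 19, at -0.82 over 5 genes. Below them came p53 pathway and apoptosis genes at -0.79 over 3, then kinases, phosphatases and signalling genes at -0.66 over 8. Ubiquitin and proteasome genes followed at -0.64 over 4, chaperones at -0.60 over 3 and nuclear transport genes at -0.60 over 4. All 238 named genes had a median of -0.42. Of them 87 were called lower, and 160 without scaling, against which the class counts that follow are to be read. At the other end stood ribosomal protein genes at -0.01 over 21 and translation factors at 0.43 over 3. With quantile normalization these 2 classes were lower with HuR than with IgG already with control siRNA. Their median HuR minus IgG differences there were -0.66 and -0.81, against 1.01 for adhesion genes and 0.66 over all named genes. Their mean deposited intensities with control siRNA were not lower with HuR. They were 85.4 with HuR and 80.3 with IgG for ribosomal proteins, and 78.9 and 73.3 for translation factors.

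Without scaling some classes changed their place in the order. Actin and cytoskeleton genes had a median of -0.24 with quantile normalization and -1.48 with no scaling. DNA replication and mitosis genes had -0.10 and -1.37. Ribosomal proteins remained near the top at -0.27, and adhesion genes near the bottom at -1.41. In all 31 settings tried, adhesion, p53, signalling, ubiquitin, secretory pathway, chaperone and nuclear transport genes lay below the median of the members, unnamed probes included. Against the named genes alone this did not always hold. Without scaling secretory pathway genes had -0.87 against -0.97, and over 16 arrays without scaling signalling genes had -0.18 against -0.21. Ribosomal proteins and translation factors lay above the median of the members in all 31.

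Adhesion and extracellular matrix members were ITGB1, CDH2, DCBLD2, CD44 and CD81, of which DCBLD2 and CD44 were called lower. ITGB1 encodes the integrin beta 1 subunit. Its intensities were 525, 773, 580 and 247 on the HuR arrays with control siRNA and 104, 1849, 116 and 60 with MIR100HG siRNA. On IgG they were 52, 54, 48 and 55 with control and 45, 43, 54 and 47 with MIR100HG siRNA. Replicates 1, 3 and 4 after MIR100HG siRNA lay below every control value, and replicate 2 above every control value.

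ITGB1 had a change in enrichment of -1.37 ± 0.52 (SE, adjusted p = 0.105), and of -3.03 without scaling (adjusted p = 0.000303). It was still above IgG with MIR100HG siRNA, by 1.75 ± 0.38 (SE) on the log2 scale (limma, adjusted p = 0.0234), and by 1.38 without scaling (adjusted p = 0.0510). That call was lost without IgG replicate 4 or HuR replicate 1 or 3 with MIR100HG siRNA, at adjusted p-values of 0.0523, 0.0846 and 0.0972. It was also lost with median centring.

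CDH2, N-cadherin, ran from 108 to 201 on the HuR arrays with control siRNA and read 84, 706, 75 and 44 with MIR100HG siRNA. Its change was -0.60 (adjusted p = 0.463), and -1.99 without scaling (adjusted p = 0.000814). IgG never put it above background. HuR exceeded IgG after MIR100HG siRNA without replicate 2 (limma, adjusted p = 0.0440). The mean HuR signal was at least 1.68-fold above IgG there, carried by the readings of 84 and 75, as replicate 4 read only 44. Such bounds set the mean of the brighter group against the lowest signal that counts as above background on each array of the dim group, or the probe's own signal where that is higher, all on the quantile-normalized, background-corrected scale. They are bounds for that normalization only. DCBLD2, a transmembrane receptor-like protein, read 101, 127, 104 and 71 with control siRNA and 63, 189, 60 and 57 with MIR100HG siRNA. It was called lower at -0.94 ± 0.26 (SE, adjusted p = 0.0246), and at -1.41 without scaling. Without HuR replicate 1 or 2 with control siRNA, or HuR replicate 4 with MIR100HG siRNA, its adjusted p was 0.0565, 0.0629 or 0.0575. A second DCBLD2 probe gave -1.40, the lowest change of all members, and was called lower (adjusted p = 6.7e-05). CD81, a tetraspanin, had the smallest change of the class, -0.39 (adjusted p = 0.0616), and its HuR groups overlapped.

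The cyclin list held 2 member genes. CCND2, cyclin D2, promotes the step from G1 to S phase and is among the described HuR targets. Its intensities on the HuR arrays were 215, 307, 308 and 140 with control siRNA and 89, 1132, 68 and 44 with MIR100HG siRNA, while both IgG groups stayed between 38 and 46. Its change was -1.21 ± 0.46 (SE, adjusted p = 0.106), and -2.66 without scaling (adjusted p = 0.000252). A second CCND2 probe gave -1.06 and was called lower (adjusted p = 6.7e-05). CCNI, cyclin I, an atypical cyclin, read 112, 148, 136 and 78 with control siRNA and 61, 725, 54 and 45 with MIR100HG siRNA. It was called lower at -1.23 ± 0.16 (SE, adjusted p = 0.000124), and neither IgG group put it above background.

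The p53 and apoptosis members were ZMAT3, CASP2 and BAX, and none was above background on HuR replicates 1, 3 and 4 after MIR100HG siRNA. ZMAT3, an RNA-binding product of a p53 target gene, read 88, 102, 103 and 75 with control siRNA and 52, 184, 51 and 50 with MIR100HG siRNA. It was called lower at -0.80 (adjusted p = 0.00370), with HuR signal at least 1.49-fold lower without replicate 2. CASP2, the caspase-2 mRNA that HuR is known to bind, read 76, 71, 62 and 66 with control siRNA and 46, 210, 50 and 43 with MIR100HG siRNA. Its change was -0.79 ± 0.14 (SE, adjusted p = 0.000913), with a bound of at least 1.18-fold. BAX, a pore-forming death effector, had a change of -0.28 (adjusted p = 0.570) and was at least 1.16-fold lower in HuR.

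Of the 8 signalling genes 5 were called lower, where 87 of 238 named genes were. YWHAZ, the 14-3-3 zeta adaptor, read 101, 107, 159 and 75 on the HuR arrays with control siRNA and 47, 207, 48 and 41 with MIR100HG siRNA. Both IgG groups lay between 38 and 49. The HuR group averaged 111 ± 35.2 (SD, n = 4) with control siRNA and 45.3 ± 3.79 (SD, n = 3) with MIR100HG siRNA without replicate 2, which is at least 1.70-fold lower. YWHAZ was called lower at -1.27 ± 0.15 (SE, adjusted p = 7.31e-05). CSNK1E, casein kinase 1 epsilon, was called lower at -1.09 (adjusted p = 0.000123), with HuR values of 79 to 133 with control siRNA and of 52, 412, 58 and 55 with MIR100HG siRNA. PRICKLE2 and PTP4A3, seen on all 4 IgG arrays with control siRNA, had changes of -0.33 and 0.14 and were not called.

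Of the 5 membrane and secretory pathway genes 3 were called lower. TMED2, a cargo receptor of vesicles between the endoplasmic reticulum and the Golgi, had the lowest change among members called lower that carry a name and stand for their gene. It read 130, 162, 175 and 71 with control siRNA and 51, 241, 57 and 46 with MIR100HG siRNA on the HuR arrays, and 39 to 47 on all 8 IgG arrays. The change was -1.36 ± 0.18 (SE, adjusted p = 0.000140), and -2.16 without scaling. TMCO1, outside the lists, a membrane protein of the endoplasmic reticulum, read 128, 147, 163 and 91 with control siRNA and 63, 435, 55 and 51 with MIR100HG siRNA. TMCO1 was called lower at -1.20 (adjusted p = 0.000866). Within the list TMEM59 was called at -0.72 (adjusted p = 0.00288) and TMEM97 at -0.56 (adjusted p = 0.00807). LAMP1, a lysosomal membrane protein, was not called at -0.48 (adjusted p = 0.0525), nor was TMEM35A at -0.03 (adjusted p = 0.967).

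Nuclear transport genes, a list added after the member names were seen, were all lower without scaling, and 2 of 4 were called with quantile normalization. KPNA4, an importin alpha, read 99, 125, 116 and 70 with control siRNA and 51, 360, 55 and 45 with MIR100HG siRNA. It was called lower at -1.10 ± 0.13 (SE, adjusted p = 6.72e-05) with HuR signal at least 1.63-fold lower without replicate 2. SEH1L, a nuclear pore component, was called at -0.67 (adjusted p = 0.00117). KPNB1, importin beta 1, read 118, 184, 145 and 98 with control siRNA and 80, 805, 66 and 57 with MIR100HG siRNA. It remained above background on all 3 arrays, and its change was -0.52 (adjusted p = 0.395), or -1.64 without scaling (adjusted p = 0.000841). RANBP1, a regulator of the Ran GTPase, had -0.41 (adjusted p = 0.209), or -1.08 without scaling (adjusted p = 0.00758).

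In the ubiquitin and chaperone lists the most reduced members with quantile normalization were UBE2C and DNAJA2. UBE2C, the E2 enzyme of the anaphase-promoting complex, read 86, 95, 129 and 76 with control siRNA and 54, 232, 54 and 47 with MIR100HG siRNA. UBE2C was called lower at -1.03 (adjusted p = 0.000124) with a bound of at least 1.54-fold. DNAJA2, a co-chaperone of HSP70, was called at -0.98 (adjusted p = 0.000123) with a bound of at least 1.41-fold. TRIM16L and UBE2E2 had changes of -0.77 (adjusted p = 0.342) and -0.51 (adjusted p = 0.158), and were called lower without scaling, at -1.96 and -1.11, among other settings. UBE2C was at -1.62 without scaling, so TRIM16L was the lower of the pair there. SUMO2 had overlapping HuR groups and a change of -0.36 (adjusted p = 0.108).

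Genes for RNA-binding proteins spread over the whole range, and 4 of 10 were called lower, close to the 87 of 238 over all named genes. SNRPF, a core protein of spliceosomal snRNPs, read 82, 142, 194 and 83 with control siRNA and 52, 242, 44 and 48 with MIR100HG siRNA. It was called lower at -1.30 ± 0.21 (SE, adjusted p = 0.000527), at least 1.86-fold lower in HuR without replicate 2. PCBP1, a poly(C)-binding protein, read 101, 115, 132 and 77 with control siRNA and 59, 407, 57 and 43 with MIR100HG siRNA, and was called at -1.08 (adjusted p = 0.000124). LSM1, of the mRNA decapping machinery, had a change of -0.07 (adjusted p = 0.867).

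HNRNPK, another poly(C)-binding protein, went the other way in its values. It read 59, 63, 60 and 63 with control siRNA and 70, 64, 74 and 70 with MIR100HG siRNA, so no HuR value after MIR100HG siRNA was below any control value. Its change was 0.82 ± 0.31 (SE, adjusted p = 0.108), and 0.34 without scaling. IgG recovered it at 56 to 63 in both groups.

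Chromatin and transcription factor members also spread. HMGN2, a nucleosome-binding protein, read 87, 107, 114 and 69 with control siRNA and 50, 149, 43 and 42 with MIR100HG siRNA, and was called lower at -0.996 (adjusted p = 0.000140). UHRF1, which reads methylated DNA and histones, was called at -0.86 (adjusted p = 0.000140). NUCKS1, a chromatin-associated phosphoprotein outside the lists, read 124, 158, 125 and 89 with control siRNA and 60, 350, 53 and 50 with MIR100HG siRNA. It was called at -1.23 ± 0.14 (SE, adjusted p = 6.72e-05). SP3, an edge member seen on all 4 IgG arrays with control siRNA, had a change of 0.52 (adjusted p = 0.305).

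JUND, a component of the AP-1 transcription factor and a described HuR target, kept its HuR signal on 2 of the 3 arrays. It read 131, 194, 183 and 127 on the HuR arrays with control siRNA and 142, 1789, 136 and 65 with MIR100HG siRNA. The groups overlapped, and only replicate 4 lay below the control values. IgG never put it above background, with 40 to 51 over 8 arrays. Its enrichment after MIR100HG siRNA was 2.47 ± 0.33 (SE, adjusted p = 0.000503), or at least 3.98-fold with quantile normalization. Without scaling the difference was smaller, at 1.91 (adjusted p = 0.0135). The change in enrichment was 0.77 (adjusted p = 0.327) with quantile normalization and -0.76 without scaling (adjusted p = 0.232).

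Zinc finger genes had a median of -0.49 over 9, with 3 called lower, close to the share over all named genes, and -0.94 without scaling. ZFP91 read 91, 113, 95 and 73 with control siRNA and 51, 360, 58 and 53 with MIR100HG siRNA, and was called at -0.92 (adjusted p = 0.000301). ZNF674 read 194, 257, 289 and 163 with control siRNA and 86, 1388, 87 and 65 with MIR100HG siRNA. Its change was 0.43 (adjusted p = 0.435) with quantile normalization and -1.45 without scaling (adjusted p = 0.00146). It was enriched over IgG after MIR100HG siRNA by 1.47 (adjusted p = 0.00155), and by 0.99 without scaling (adjusted p = 0.0447).

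The calls of actin and cytoskeleton members turned on the normalization: 1 of 8 was called lower with quantile normalization and 7 of 8 without scaling. Over all 238 named genes the counts were 87 and 160. ACTB, cytoplasmic beta-actin and a described HuR target, read 441, 709, 960 and 337 with control siRNA and 156, 2756, 139 and 69 with MIR100HG siRNA. IgG gave 87, 66, 56 and 71 with control and 53, 52, 54 and 54 with MIR100HG siRNA. The HuR mean was 612 ± 280 (SD, n = 4) with control siRNA and 121 ± 46.1 (SD, n = 3) with MIR100HG siRNA without replicate 2. The change was 0.02 ± 0.42 (SE, adjusted p = 0.984) with quantile normalization, a value too small against its SE to have a sign. Without scaling it was -2.20 (adjusted p = 0.00482).

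ACTB was nonetheless enriched over IgG after MIR100HG siRNA, by 2.36 ± 0.31 (SE, adjusted p = 0.000480), and by 1.65 without scaling (adjusted p = 0.0462). That call was lost with median centring and with the arrays of that comparison alone. The other 2 ACTB probes gave changes of -0.61 (adjusted p = 0.00588) and -0.80 (adjusted p = 0.591) with quantile normalization, so the size and the call differed between probes. Without scaling they gave -0.96 and -2.66, and the ACTB probes were all negative there. POTEF, an actin-related gene whose sequence resembles ACTB closely enough that the probes may share signal, had -0.95 (adjusted p = 0.319). CAPZA2, of the actin capping protein, was called lower at -0.64 (adjusted p = 0.00464).

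TMSB4X, thymosin beta 4, which sequesters actin monomers, moved in both IPs. On IgG it read 108, 97, 84 and 94 with control siRNA and 48, 48, 48 and 50 with MIR100HG siRNA, with no overlap and no value above background in the second group. It fell within IgG by 2.10 on the log2 scale (adjusted p = 0.000609), or at least 3.48-fold with quantile normalization. Without scaling the fall was smaller, at -1.63 (adjusted p = 0.00559), and with normalization within each IP type it was -1.21 and not called (adjusted p = 0.0792). On HuR it read 252, 399, 460 and 188 with control siRNA and 80, 1237, 98 and 55 with MIR100HG siRNA. Its change in enrichment was 0.87 (adjusted p = 0.277) with quantile normalization and -1.16 without scaling (adjusted p = 0.0633).

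DNA replication and mitosis members were PCLAF, ORC6, PTTG1, BUB3 and UBE2C. ORC6, a subunit of the origin recognition complex, read 179, 244, 234 and 141 with control siRNA and 89, 1326, 78 and 70 with MIR100HG siRNA. The change was 0.58 (adjusted p = 0.118) with quantile normalization and -1.37 without scaling (adjusted p = 0.00433). Its enrichment over IgG after MIR100HG siRNA was 1.84 ± 0.17 (SE, adjusted p = 1.06e-05), and 1.03 without scaling (adjusted p = 0.0452). With median centring it was not called. BUB3 and PTTG1, which act at the mitotic checkpoint and on sister chromatid separation, had changes of -0.15 and 0.16.

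ANXA2P2, ITIH5, FAM177A1 and CLUAP1 also changed sign with the scaling. ANXA2P2 is an annexin A2 pseudogene, and its probe cannot be told apart here from its parent gene. It read 347, 489, 494 and 287 on HuR with control siRNA and 126, 2632, 132 and 80 with MIR100HG siRNA. Its change was 1.09 ± 0.37 (SE, adjusted p = 0.0672) with quantile normalization and -1.27 without scaling (adjusted p = 0.0254). ITIH5 had 0.18 and -1.70, FAM177A1 0.32 and -1.69, and CLUAP1 0.06 and -1.43, in that order of scales. Each of these 4 genes was enriched over IgG after MIR100HG siRNA under both scales. The calls of ITIH5 and FAM177A1 were lost with median centring and with no filter. With the arrays of that comparison alone, those of ITIH5, FAM177A1 and ANXA2P2 were lost.

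Transcripts usually associated with other tissues were also among the members, in a list put together after the member names were seen. LAIR1, an inhibitory receptor of leukocytes, read 1014, 1240, 1275 and 770 with control siRNA and 248, 6370, 257 and 123 with MIR100HG siRNA on HuR, and 122 to 203 on IgG with control siRNA. Its change was 0.11 (adjusted p = 0.897), and -1.38 without scaling (adjusted p = 0.0369). AIRE was called lower at -0.78 (adjusted p = 0.00288). KCNH6 was called at -0.84 (adjusted p = 0.0239), and missed the threshold without HuR replicate 1 or 2 with control siRNA or HuR replicate 4 with MIR100HG siRNA, at up to 0.0581, while GUCA1C and OR10J1, with HuR values of 57 to 69 throughout, had 0.14 and 0.19. The leukocyte marker PTPRC was not detected at p under 0.05 on any array. Whether such probes report these genes was not tested.

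Ribosomal protein mRNAs were the large class that moved least in enrichment. With control siRNA their median HuR minus IgG difference was -0.66 with quantile normalization. Their mean deposited intensity there was 85.4 with HuR and 80.3 with IgG, so a lower recovery with HuR was not seen before normalization. Of 21 genes, 19 were above background on all 4 IgG arrays with control siRNA. Their median intensity was 71.0, 89.0, 96.0 and 65.0 on HuR with control siRNA and 59.0, 210, 56.0 and 48.0 with MIR100HG siRNA. On IgG it was 94.0, 71.0, 67.0 and 78.0 with control siRNA and 63.0, 48.0, 52.0 and 55.0 with MIR100HG siRNA. These medians were lower after MIR100HG siRNA with both antibodies, apart from HuR replicate 2. The median change within IgG was -0.83, with 9 called lower, and 1 of 21, RPL7L1, was called lower in enrichment at -0.70 (adjusted p = 0.00226). RPL7L1 was also the 1 member of the class above background on 0 IgG arrays.

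The near-zero class median was not the same under every setting: it was -0.27 without scaling, 0.24 over 16 arrays, and 0.45 over 16 arrays without scaling. RPS16 read 124, 81, 77 and 89 on IgG with control siRNA and 68, 47, 52 and 55 with MIR100HG siRNA, and fell by 1.42 (adjusted p = 0.00711). On HuR it read 79, 75, 86 and 63, and 64, 310, 57 and 52, which gave a change in enrichment of 0.93 (adjusted p = 0.215). RPS20 fell within IgG by 1.16 (adjusted p = 0.00267) with a change in enrichment of -0.01. RPL41 fell within IgG by 1.61 (adjusted p = 0.0287) with a change of 0.54, and its IgG call was lost when any of 5 IgG replicates was left out singly, at adjusted p-values up to 0.0963. RPS16, RPS20 and RPL41 were also called lower within IgG without scaling.

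After quantile normalization RPS29 was higher with IgG than with HuR in cells given MIR100HG siRNA. It read 88, 60, 70 and 69 on IgG and 62, 452, 67 and 65 on HuR, so the intensities overlapped. The difference was -1.99 ± 0.18 (SE, adjusted p = 1.06e-05) with quantile normalization and -0.49 without scaling (adjusted p = 0.260). The normalized difference with control siRNA was -1.77, and the change between siRNAs was -0.22 (adjusted p = 0.640). RPL37A was called in the same direction at -1.24 (adjusted p = 0.0234), with -0.34 without scaling (adjusted p = 0.301) and an adjusted p of 0.0728 without HuR replicate 3 with MIR100HG siRNA. The 4 ribosomal protein pseudogenes, another list added later, had changes of -0.27 to -0.03 and none was called.

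The translation factor EEF1A1, which delivers aminoacyl-tRNA to the ribosome, had lower intensities after MIR100HG siRNA with both antibodies, apart from HuR replicate 2. It read 120, 99, 72 and 95 on IgG with control siRNA and 53, 54, 54 and 52 with MIR100HG siRNA, a fall by 1.70 (adjusted p = 4.05e-05). On HuR it read 82, 82, 101 and 67, and 50, 183, 53 and 48. The change in enrichment was 0.83 (adjusted p = 0.0613), and 0.01 without scaling. A second EEF1A1 probe gave -0.30 (adjusted p = 0.685), and -0.40 without scaling, so the probes of this gene disagreed in sign. TPT1 fell within IgG by 0.80 (adjusted p = 0.0110) with a change of 0.43. EIF4G2, an initiation factor relative seen on 1 IgG array with control siRNA, was called lower in enrichment at -0.72 (adjusted p = 0.00590). The probes of paralogous and pseudogene-rich families such as EEF1A1 and the ribosomal proteins may share signal with near-identical copies.

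Among noncoding RNAs, SNHG10 was called lower at -1.03 (adjusted p = 0.000270) and SNHG3 was not, at 0.17 (adjusted p = 0.629). Both are host transcripts of small nucleolar RNAs. SNHG10 read 88, 136, 118 and 83 on HuR with control siRNA and 54, 229, 55 and 40 with MIR100HG siRNA. SNHG3 read 68, 75, 73 and 71, and then 56, 111, 61 and 55, while it fell within IgG by 0.67 (adjusted p = 0.00234). RN7SL1, the RNA of the signal recognition particle, read 212, 231, 199 and 142, and then 80, 1062, 71 and 60. Its change was -0.44 (adjusted p = 0.544), or -1.87 without scaling (adjusted p = 0.000477).

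The 3 mitochondrial members had a median change of -0.41, against -0.42 over all named genes. COX16, an assembly factor of cytochrome oxidase, was called lower at -0.46 (adjusted p = 0.0310), a call lost when any of 6 arrays was left out singly, at adjusted p-values up to 0.0652. COX16 read 62, 70, 71 and 58 with control siRNA and 57, 126, 50 and 52 with MIR100HG siRNA. MT2A, a metallothionein outside the lists, had -0.86 (adjusted p = 0.372), and its HuR signal was at least 1.70-fold lower without replicate 2. F2R, the thrombin receptor, had -0.20 (adjusted p = 0.875), or -1.68 without scaling (adjusted p = 0.00319).

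The 3 members called higher were RTEL1, C1orf226 and an unnamed probe. RTEL1, a DNA helicase of telomere maintenance, read 118, 138, 113 and 118 on HuR with control siRNA and 163, 140, 126 and 110 with MIR100HG siRNA. On IgG it read 157, 154, 142 and 135, and then 113, 101, 131 and 116, so the HuR groups overlapped and the IgG groups did not. Its change was 1.79 ± 0.33 (SE, adjusted p = 0.00145) with quantile normalization, 0.52 without scaling (adjusted p = 0.0941), and 1.28 over 16 arrays (adjusted p = 0.502). C1orf226 read 59 to 63 on HuR with control siRNA and 70, 69, 76 and 67 with MIR100HG siRNA, with a change of 0.87 (adjusted p = 0.0267), or 0.38 without scaling. Its call was lost when any of 5 HuR arrays was left out singly, at adjusted p-values up to 0.0683.

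The third was an unnamed probe whose intensity ranged from 293 to 413 over all 16 arrays. Its change was 1.95 with quantile normalization and 0.15 without scaling (adjusted p = 0.534). GAPDH, a glycolytic enzyme often used as a reference, behaved likewise without being called. It averaged 116 ± 12.3 and 101 ± 12.2 on IgG and 108 ± 3.50 and 106 ± 9.54 on HuR, each with control and then MIR100HG siRNA (SD, n = 4, and n = 3 for the last). Its change was 0.93 (adjusted p = 0.0852), and 0.11 without scaling.

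The unnamed members, 159 probes, had a median change of -0.16, and 37 were called lower. Without scaling their median was -0.71. Of these probes 96 were above background on all 4 IgG arrays with control siRNA, and 19 on none.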

How the data were processed

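RNA from IgG and HuR immunoprecipitations of U2OS cells was hybridised to Illumina bead arrays, 16 in all, grouped by their titles. The deposited intensity values are linear bead summaries, not normalized between arrays; the submitters' processing notes name GenomeStudio 2011.1. A detection p-value stands beside every intensity, per the file headers. How the deposited score per probe was made is unstated, and it served as an alternative; its column for IgG with MIR100HG siRNA, replicate 1, correlated with its own array at 0.0066, against at least 0.997 for the others, and was not used.

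The platform annotation gave a single gene for 30113 of 47231 probes and several for 8, and left 17110 without a name here. Gene identifiers updated 30074 of the symbols, and 39 stayed as annotated. For 16 genes with several member probes the probe of highest mean intensity stood for the gene. Intensities were corrected with normexp on negative controls inferred from detection p-values, quantile normalized and log2 transformed with an offset of 16, as neqc in limma 3.58.1 (R 4.3.3) does. The 1181 probes (2.5%) whose detection p was below 0.01 on 4 or more of the 15 arrays were tested with lmFit, contrasts.fit and eBayes on 4 group means, with Benjamini-Hochberg adjustment over all of them at 0.05. The number of arrays limits the precision. Slides and scan times were not used here, since neither the labels nor the headers give them. Values per replicate are deposited intensities, and differences are on the normalized log2 scale unless no scaling is stated.

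The members, the gene lists and the rule for named genes were chosen with earlier results of these data known. The rule took the 10 lowest and highest changes, the 2 lowest and highest of each list, the largest differences in the other comparisons, the members of highest mean intensity lost or kept, and described HuR targets; the 10 largest rises include genes that were not called. Within pairs of replicates, 8.25% to 11% of probes had identical intensities, so no array was taken as a copy of another. Same-numbered samples deviated together by a correlation of -0.13 to 0.27 over 21 pairs, and 5 exceeded 0.1. On simulated data over 1181 probes the fit of the change in enrichment recovered 32%, 72%, 98% and 100% of changes of 0.5, 1, 2 and 3 on the log2 scale, with 3.21% false calls; for HuR against IgG with MIR100HG siRNA it recovered 52%, 94%, 100% and 100%, with 5.98%. The simulation drew normal noise around a single mean per probe on normalized values. It left out the background, the scaling between arrays and the selection of members, so its rates do not cover those steps. Alternatives covered normalization, background correction, filters, a replicate block, each array left out and all 16 arrays. No genome build or probe sequence was used.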

Additional observations from a re-analysis of the deposited data

Results flagged for a closer look

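Replicate 2 of HuR with MIR100HG siRNA lay far from the other 3 arrays of its group in 2592 detected probes and in a members' median intensity of 195. The gap to the nearest array was 0.871 and 0.951 of the group's range, past the critical value for 4 samples. Of the 414 members, 319 had this array far above the other 3. Within single groups, 324 members (78.3%) had an array past that value in HuR with MIR100HG siRNA, against 44 (10.6%) in IgG with control siRNA, 32 (7.73%) in IgG with MIR100HG siRNA and 15 (3.62%) in HuR with control siRNA, where chance gives about 1 in 20. What sets this array apart was not tested.

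The difference in HuR enrichment between the siRNAs was called for 139 members over 15 arrays, by the interaction term itself, 136 lower and 3 higher, on arrays that also chose the members.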

How the results depend on the processing

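The depth of signal over background limits most values: 139 members were above background on none of HuR replicates 1, 3 and 4 with MIR100HG siRNA. The change in HuR enrichment was called for 139 members over 15 arrays. The count was 3 over 16 arrays, 252 without scaling, 269 with median centring, 233 when arrays were quantile normalized separately for each IP type, and 212 with members chosen at a detection p under 0.05. Chosen on 2 HuR control arrays and fitted with the others without scaling, it was 227 and 268; this setting and the other scalings over 16 arrays were added after the data were seen. Over 16 arrays limma called 0 without scaling and 0 with median centring (24 and 30 at an unadjusted p under 0.05), and 28 with normalization within IP type. Leaving out single arrays gave 113 to 155.

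HuR against IgG with MIR100HG siRNA was called for 39 members. The count was 20 without scaling, 7 with median centring, 101 within IP type, 23 with the deposited scores, 19 with a filter at a detection p under 0.05, 5 with no filter, and 2 with the arrays of this comparison only. Over 16 arrays limma called 0 without scaling and 0 with median centring (86 and 56 at an unadjusted p under 0.05). Leaving out single arrays gave 13 to 70, and moved the count by over 1.5 times for 11 of 15 arrays. The change within IgG was called for 59 members, and for 28 within IP type, 95 with the scores, 20 with no filter and 20 with its arrays only. Over 16 arrays it was 0 without scaling, 0 with median centring and 0 within IP type (19, 20 and 27 at an unadjusted p under 0.05), and 42 to 96 with single arrays left out.

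The change in enrichment turned sign and was called lower without scaling for ANXA2P2 (-1.27), ZNF674 (-1.45), ACTB (-2.20), ORC6 (-1.37), FAM177A1 (-1.69), ITIH5 (-1.70), LAIR1 (-1.38), CLUAP1 (-1.43), SLC7A5P2 (-1.49) and RRP7BP (-1.73). None of these genes was called with quantile normalization, where some values were too small to have a sign, such as 0.02 for ACTB and 0.06 for CLUAP1. With median centring these genes had -1.28, -1.46, -2.22, -1.38, -1.70, -1.71, -1.40, -1.45, -1.50 and -1.74 in that order, and TMSB4X had -1.17. Without scaling 6 other named genes turned sign without a call on either scale, among them TMSB4X (-1.16) and JUND (-0.76). Over 16 arrays HuR against IgG turned for RPS29 without scaling (0.46) and with median centring (0.22), for RPL37A without scaling (0.14) and for PRICKLE2 within IP type (0.052). The cause was not tested. Without scaling the median of all tested probes in HuR against IgG with MIR100HG siRNA moved from 0.03 to 0.14. Replicate numbers did not pair the samples; with a replicate block 127, 32 and 65 members were called in the 3 comparisons.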
